A study of Homo sapiens with 22 samples.

Results

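The last step of the reprogramming time course, from day 11 (D11) to day 15 (D15), was examined by comparing the 2 pools of D15 with the 2 pools of D11 over all their kept cells. BJ cells, an established human line of foreskin fibroblasts, had been grown in microfluidic channels under low oxygen and transfected 8 times with mRNA coding for POU5F1, SOX2, KLF4, MYC, LIN28 and NANOG, the last time on day 8, and had been moved from Pluriton to StemMACS iPSBrew medium from day 9. All pools of both days therefore share the line, the factors, the transfections and both media, and differ in the day of harvest and thus in the time since the last transfection. Each pool joined cells from 4 chips that were cryopreserved before capture. The comparison held 6207 cells of D11 (2925 in pool A and 3282 in pool B) and 2679 cells of D15 (571 and 2108), together 8886 of the 41975 kept cells of the series and 5 of its 22 libraries. Libraries of the same pool were added together. Cells with fewer than 1000 genes or with over 10% of their unique molecular identifiers (UMIs) on mitochondrial genes were left out, and the pools of D13 (1377 and 4069 cells) were used as intermediate levels. The pools are the replicates (n = 2 per day). They come from chips seeded with 1 cell line, so p-values measure the spread between pools, estimated over all 16 pools of the series, which may be technical.

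Fibroblasts that enter reprogramming give up a mesenchymal programme of collagens, contractile proteins and positional HOX genes, and build junctions and a self-sustaining network around POU5F1, SOX2 and NANOG. Once the delivered RNA is gone, only cells in which this network runs from their own genes stay pluripotent, and cells that did not complete the change can remain beside them in the culture. Human pluripotent cells can also hold a low level of early lineage genes, such as those of the primitive streak, which Nodal, WNT and BMP signals drive.

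Summed over its kept cells, a pool of D11 held 180056814 and 156209439 UMIs (A and B) and a pool of D15 33181614 and 64814405, with a median of 56077 and 44744 UMIs per cell on D11 and of 57141 and 29973 on D15. The median mitochondrial share per cell was 4.12 and 3.45% on D11, 3.55 and 5.49% on D13 and 5.69 and 6.22% on D15, so that it moved with the day, and 85.1 and 87.5% of cells on D11 against 29.6 and 17.4% on D15 lay at or under 5%. Its part in the results was not tested beyond a repeat under that limit, given beside the count of called genes. Any 2 of the 5 libraries shared between 0 and 9 barcodes. Pool A of D11, pool B of D13 and pool B of D15 stood apart from the other pool of their day. In them, 94.2%, 89.7% and 78.7% of the cells rich in collagen RNA also had POU5F1 at 100 UMIs per 1000000 (CPM) or more. The share was 13.1% in pool B of D11, 8.06% in pool A of D13 and 27.7% in pool A of D15. The lowest decile of cells reached up to 152 and 0 CPM of POU5F1 in pools A and B of D11. The part of RNA free in the droplets in these values was not tested.

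The cell populations of the 2 days differed. Cells were called collagen-high when COL1A1, COL1A2 and COL3A1, the chains of the main fibrillar collagens of fibroblasts, together reached 1000 CPM. They made up 39.5 and 38.4% of cells on D11, 30.6 and 19.5% on D13 and 8.23 and 10.7% on D15. Cells with POU5F1 at 100 CPM or more and collagens under 1000 CPM, called POU5F1-high collagen-low, made up 60.1 and 57.4% on D11, 62.8 and 79.5% on D13 and 88.1 and 87.5% on D15, which is 58.8% ± 1.91 against 87.8% ± 0.435 (SD, n = 2). The pools of D11 and D15 did not overlap in either share, and the difference was larger than the spread between pools. With 2 pools per day, a two-sided exact permutation test cannot go below p = 0.333, the value it gave. Within a factor of 2 of the collagen limit lay 37 and 15.6% of the cells in pools A and B of D11 and 4.90 and 6.21% in those of D15, so the class is a range of levels and not a cell type, above all in pool A of D11. There 97.3% of all cells passed the POU5F1 limit, against 62.4% in pool B of D11. With a collagen limit of 500 CPM, POU5F1-high collagen-low cells made up 35.2 and 53.4% on D11 and 87.0 and 85.4% on D15. How close the 2 pools of D11 lie thus depends on the limit.

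**Figure D1:**
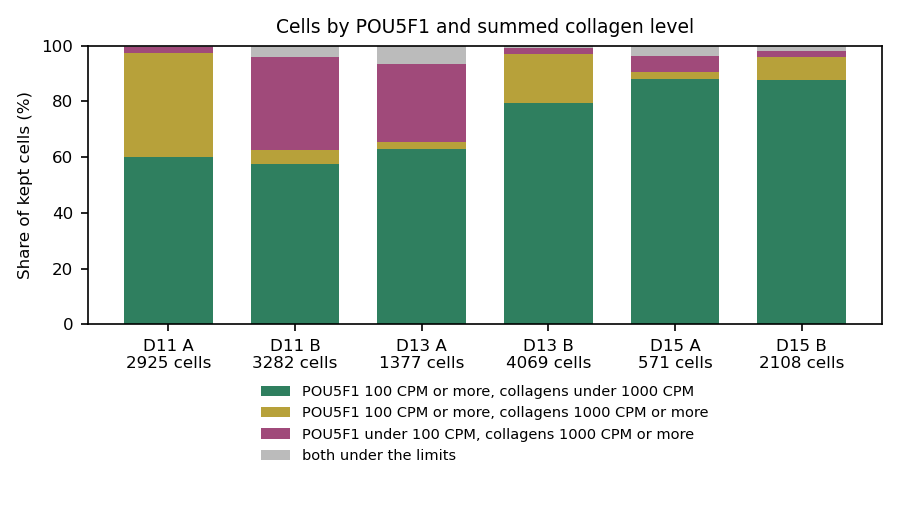
Share of kept cells in each pool (y axis, percent) by POU5F1 and summed collagen level, for pools A and B of D11, D13 and D15, with the number of kept cells under each bar. POU5F1-high collagen-low cells (green) filled 60.1 and 57.4% of the D11 pools and 88.1 and 87.5% of the D15 pools. The collagen-high cells of D11 pool A, D13 pool B and D15 pool B mostly also passed the POU5F1 limit.

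Of 12794 genes tested over the pool sums with edgeR, 1115 (8.72%) were called between D15 and D11, with a p adjusted by the Benjamini-Hochberg method under 0.01 and a log2 fold change of over 0.25 in either direction. Of these, 324 (2.53%) were higher and 791 (6.18%) were lower on D15, and at least 2-fold changes numbered 266 and 716. The median log2 fold change of all genes tested was 0.00. In a sum over cells, a change in the cells of a type and a change in RNA per cell cannot be told apart. The smaller collagen-high share on D15 stands beside every fall given here, and the larger POU5F1-high collagen-low share beside every rise. Not all falling genes lay mainly in collagen-high cells on D11, as given below. The count rested on all 4 pools: it was 329 without pool A of D11, 431 without pool B of D11, 174 without pool A of D15 and 360 without pool B of D15. It was 226, with 120 higher and 106 lower, when only cells at or under 5% mitochondrial UMIs were summed, and 370 when only collagen-low cells were. Fitted on the 4 pools of both days alone it was 2245, and on the 6 pools of D11, D13 and D15 alone 188. Of the 113 called genes that the naming rule picked, 52 lost the call without pool A of D11, 44 without pool B of D11, 73 without pool A of D15, 50 without pool B of D15, 66 at the 5% mitochondrial limit, 66 in the fit on 6 pools and 44 with only collagen-low cells, where 1 more turned direction.

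The 15 largest rises lay between 2.05 and 4.09 on the log2 scale. They were drawn only from called genes with both D15 pools above both D11 pools, so their lack of overlap was fixed by this rule. APOA1, the main protein of high-density lipoprotein, lay on chromosome 11 from 116835751 to 116837622. It stood at 1.31 and 2.32 CPM in pools A and B of D11, at 4.72 and 10.1 on D13 and at 27 and 30.8 on D15. This was a 17-fold difference (log2 fold change 4.09, standard error 0.46, adjusted p = 0.00024 from edgeR). In the brackets that follow, a number without a name is the log2 fold change. CST1, a secreted inhibitor of cysteine proteases on chromosome 20 from 23747562 to 23751268, stood at 38.8 and 31.9 CPM on D11, 123 and 89 on D13 and 355 and 369 on D15. It rose 10.8-fold (3.43, standard error 0.34, adjusted p = 0.00019). IDO1, which degrades tryptophan, went from 3.78 and 4.07 CPM to 30.9 and 20.1 CPM (2.78, adjusted p = 0.00042). TSTD1, a thiosulfate sulfurtransferase, went from 32.6 and 34 CPM to 149 and 135 CPM (2.17, adjusted p = 0.00052).

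CNTNAP2, an adhesion protein of the neurexin family, stood at 8.98 and 12.8 CPM on D11 and at 38.4 and 47 on D15 (log2 fold change 2.06). KIF1A, a kinesin that carries vesicles along axons, reached 70.2 and 72.1 CPM from 18.5 and 17.7 (2.05), and TNNI3, the cardiac inhibitory troponin, reached 51.1 and 58.2 from 12.6 and 13.6 (2.15). For these 3 genes too, the naming rule required the D15 pools to lie above the D11 pools. ATCAY, known from brain, rose by a log2 fold change of 2.54, LRRN1, a leucine-rich repeat membrane protein, by 2.64, GNG4, a G protein gamma subunit, by 2.42, and RBM46, an RNA-binding protein of germ cells, by 2.50. C1orf21 rose by 2.26 and the long non-coding RNA LINC01405 by 2.70. Over the 15 rises, adjusted p-values ran from 0.00014 to 0.0047, and in 14 of 15 both D13 pools lay between those of D11 and D15. IDO1 was the exception, with 10.8 and 20.5 CPM on D13. These genes were picked for a wide gap between the days, which favours such a place of D13. The share of such genes over all genes tested was not counted. Calls of CNTNAP2, KIF1A and RBM46 were lost without any 1 of the 4 pools (adjusted p up to 0.031, 0.045 and 0.057 over all alternatives run), and those of KIF1A and RBM46 also with only cells at or under 5% mitochondrial UMIs and with only collagen-low cells. LINC01405 was lost without pool A of D11, pool B of D11 or pool A of D15 (up to 0.018) and ATCAY without either pool of D11 (up to 0.013), while APOA1, CST1, IDO1, TSTD1, TNNI3, LRRN1, GNG4 and C1orf21 kept their call without any 1 pool. In the fit on the 6 pools of D11, D13 and D15, the calls of LINC01405, ATCAY, KIF1A and RBM46 were lost.

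**Figure D2:**
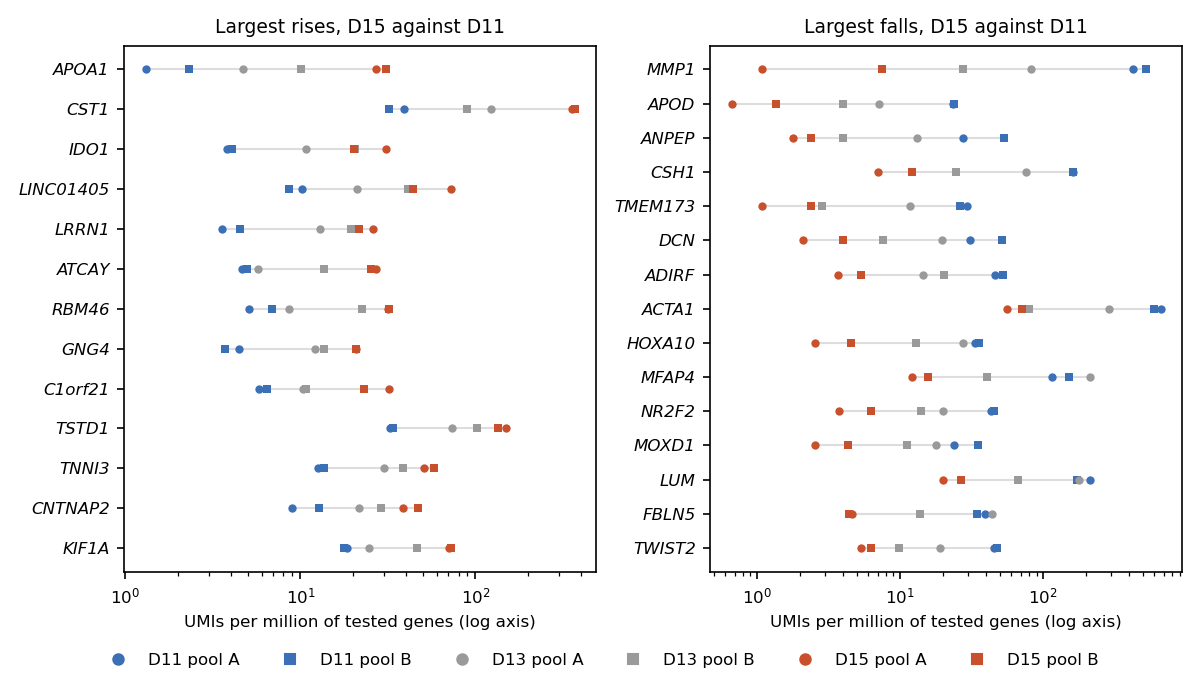
Level of the genes named among the 15 largest rises (left) and of the 15 genes with the largest falls (right) between D11 and D15, in CPM of the tested genes on a log axis, with 1 point per pool (circles pool A, squares pool B). APOA1 ran from 1.31 and 2.32 on D11 to 27 and 30.8 on D15 and MMP1 from 428 and 524 to 1.09 and 7.46, and D13 mostly lay between.

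Calls in the pluripotency network were mostly rises, beside the larger share of POU5F1-high collagen-low cells on D15. Of 37 tested, 10 rose and 1 fell, and the median log2 fold change was 0.89, against 2.53% called higher, 6.18% called lower and a median of 0.00 over all genes. OTX2, a homeobox gene of primed pluripotency and of the anterior embryo, stood at 2.64 and 2.49 CPM on D11, 8.96 and 6.43 on D13 and 11.3 and 12.8 on D15 (log2 fold change 2.31, standard error 0.23, adjusted p = 0.00030). USP44, a ubiquitin protease, went from 58.5 and 75.1 to 237 and 248 CPM (1.95, adjusted p = 0.0072). TERF1, a subunit of the telomere-binding shelterin complex, stood at 607 and 731 CPM on D11 and 1689 and 1581 CPM on D15 (1.37, adjusted p = 0.0016). All of these had both D15 pools above both D11 pools, and the share of such genes over all genes was not counted. The zinc finger gene ZIC5 rose by 1.76 on the log2 scale, POLR3G, an RNA polymerase III subunit of stem cells, by 1.60, PODXL, a surface sialomucin, by 1.15, and DNMT3B, a de novo DNA methyltransferase, by 1.02. The member that fell was GAL, a secreted neuropeptide, from 1524 and 1365 to 582 and 689 CPM (−1.11, adjusted p = 0.0048). Of the 11 called members, 5 kept the call at the 5% mitochondrial limit, 4 with only collagen-low cells, 1 in the fit on 6 pools, 2 without pool A of D11, 4 without pool B of D11, 2 without pool A of D15 and 3 without pool B of D15.

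The core factors themselves did not pass the test. POU5F1 stood at 845 and 945 CPM on D11 and 1165 and 1147 on D15 (0.45, adjusted p = 0.37), NANOG at 45.2 and 60.9 on D11 and 37.9 and 43.5 on D15 (−0.29, adjusted p = 0.35), and SOX2 at 76.6 and 74.4 on D11 and 275 and 246 on D15 (1.86, standard error 0.53, adjusted p = 0.027). For SOX2 both D15 pools were more than 3 times above both D11 pools, and its standard error stood beside 0.22 for TERF1. None of the 6 tested genes of the transfected factors was called by edgeR, with 2 at an unadjusted p below 0.05 and 1 called by DESeq2. Whether their UMIs came from delivered RNA or from the cells' own genes was not tested. Of the other pluripotency genes, DPPA4 stood at 122 and 182 on D11 and 308 and 192 CPM on D15 (adjusted p = 0.029), SALL4 at 27.9 and 37.7 on D11 and 59.2 and 55.2 on D15 (adjusted p = 0.064), L1TD1 at 367 and 549.5 on D11 and 1034 and 879.7 on D15 (adjusted p = 0.038), and TDGF1, a Nodal co-receptor, at 300.1 and 416 on D11 and 302 and 358 on D15 (adjusted p = 0.95). Summed over the 9 markers of pluripotent cells, the level was 2061 and 2581 CPM on D11 and 3515 and 3225 CPM on D15, with none of the markers at 0 in any pool. The 10 mesendoderm markers, of which 4 were tested, summed to 231 and 167 CPM on D11 and 114 and 146 CPM on D15. The 5 of neuroectoderm summed to 6.52 and 6.43 on D11 and 2.14 and 2.36 on D15, and 4 of them were under 1 CPM in every pool. Such sums follow their most abundant members, and single members can move the other way. The 3 of endothelial or blood cells stayed under 1 CPM in every pool.

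Shares of cells with a UMI of these genes were compared after each cell was thinned to 5000 UMIs, which left out no cell. Untransfected fibroblasts of D0, with a median of 23717 and 28376 UMIs per cell, gave the background. A UMI of POU5F1 was found in 82.7 and 66% of cells on D11 and 89.5 and 90.7% on D15, against 0.0488 and 0.0863% on D0 (99.9 and 89.4%, 99.3 and 99.3% and 0.342 and 0.496% without thinning). SOX2 was found in 22.3 and 20.7% on D11, 39.8 and 46.7% on D13 and 66.4 and 61.6% on D15 (21.5% ± 1.09 against 64% ± 3.36, SD, n = 2), and in no cell of D0. Without thinning these were 69.9 and 43.4% on D11, 91.1 and 88.3% on D15 and 0.0163 and 0.0647% on D0. The D15 shares of SOX2 were about 3 times those of D11 in both pools. OTX2 was found in 0.992 and 1.10% on D11 and 5.43 and 5.83% on D15 and in no cell of D0, and NANOG in 15.8 and 19.1% and 14.5 and 18.2%, where the days overlapped. Without thinning OTX2 was found in 11.9 and 7.25% and 32.6 and 23.7% and NANOG in 65.1 and 54.8% and 71.3 and 62.2%, so the order of the days for NANOG turned with the depth.

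The 15 largest falls lay between −6.67 and −2.93 on the log2 scale. They were drawn only from called genes with both D15 pools below both D11 pools, so their lack of overlap was fixed by this rule. MMP1, a secreted collagenase on chromosome 11 from 102789401 to 102798160, stood at 428 and 524 CPM on D11, 82.5 and 27.4 on D13 and 1.09 and 7.46 on D15. Its D15 pools were far below its D11 pools and differed from each other (−6.67, standard error 0.80, adjusted p = 0.00030). APOD, a lipocalin, went from 23.3 and 23.8 to 0.666 and 1.36 CPM (−4.39, adjusted p = 0.00020), and ANPEP, the surface aminopeptidase CD13, from 27.7 and 53.6 to 1.79 and 2.40 (−4.16, adjusted p = 0.0015). That neither overlapped between the days followed from the rule. LUM and DCN, proteoglycans that bind collagen fibrils, went from 212 and 174 to 20.1 and 26.8 CPM (−2.96) and from 30.9 and 51.4 to 2.09 and 4.01 (−3.63). TMEM173, the innate sensor adaptor STING, fell by 3.88 on the log2 scale, ADIRF by 3.35, MOXD1 by 2.99, and the elastic fibre proteins MFAP4 and FBLN5 by 3.16 and 2.95.

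Of the transcription factors among the 15 largest falls, NR2F2, an orphan nuclear receptor of mesenchyme, went from 43.4 and 45.6 to 3.75 and 6.26 CPM (−3.06, adjusted p = 0.00019), TWIST2 from 45.7 and 48 to 5.30 and 6.29 (−2.93, adjusted p = 0.00019) and HOXA10 from 33.2 and 35.5 to 2.54 and 4.51 (−3.18, adjusted p = 0.00019). Both D15 pools were below both D11 pools in each case, as the naming rule required. The remaining falls were ACTA1, the skeletal muscle actin, from 662 and 594 to 56.2 and 71.2 CPM (−3.22, adjusted p = 0.0019), and CSH1, a placental lactogen on chromosome 17 from 63894909 to 63896661, from 162 and 161 to 7 and 12.2 (−3.99, adjusted p = 0.00053). CSH1 has near-identical copies in its gene cluster between which reads cannot be split with certainty, so its level is uncertain. The muscle actins also share most of their coding sequence. In 12 of the 15 falls both D13 pools lay between the days, and MFAP4, FBLN5 and LUM were the exceptions. The falls were also picked for a wide gap, and the share over all genes was not counted. Without pool A of D15 the calls of ANPEP, CSH1, TMEM173, DCN, ACTA1, MFAP4, LUM and FBLN5 were lost, without pool B of D15 those of ANPEP, ACTA1, MFAP4 and FBLN5, without pool A of D11 those of ACTA1 and MFAP4, and without pool B of D11 that of MFAP4. Their adjusted p-values reached at most 0.087, for MFAP4, over all alternatives run. With only cells at or under 5% mitochondrial UMIs, the calls of NR2F2 (log2 fold change −1.66, adjusted p = 0.027), HOXA10 (−1.40, 0.040), ADIRF, ANPEP, DCN, ACTA1 and MFAP4 were lost. With only collagen-low cells, those of TWIST2 (−1.51, 0.027), ADIRF, CSH1 and LUM were lost. The fit on 6 pools lost those of ACTA1, FBLN5, MFAP4 and TMEM173, and leaving out the deepest 5% of cells lost that of CSH1.

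Another muscle actin, ACTG2 of enteric smooth muscle, also fell, from 511 and 269.9 to 37.6 and 62.9 CPM (−2.89, adjusted p = 0.0016). Both actin genes hold CArG boxes, the binding motif of serum response factor, before their starts, and these stretches are shown because actin genes are the textbook carriers of the motif. The windows run from 140 to 41 bases before the start given by RefSeq (GRCh38.p14), with CArG boxes in capitals, and were taken at chr1:229434135-229434234 on the minus strand for ACTA1 and at chr2:73892868-73892967 on the plus strand for ACTG2.
ACTA1: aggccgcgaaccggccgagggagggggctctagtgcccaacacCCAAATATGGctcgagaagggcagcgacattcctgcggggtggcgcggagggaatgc
ACTG2: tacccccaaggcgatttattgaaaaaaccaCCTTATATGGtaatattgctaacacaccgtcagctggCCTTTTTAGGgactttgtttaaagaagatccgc
The motif reads the same on both strands and was the only motif searched. Over the 250 bases upstream it was found in 1.16% of 35116 windows, in 1.11% of the 14035 windows of genes tested, in 2.26% of the 928 windows of genes called lower over the pool sums and in 0.898% of the 334 windows of genes called higher. A match describes the letters, and neither binding nor the activity of the factor was measured.

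Falls made up nearly all calls in the mesenchymal lists, where 6.18% of all genes tested were called lower and 2.53% higher. Of 16 mesenchymal transcription factors tested, 11 fell and none rose (median −1.83), among them PRRX1 (39.5 and 38.9 to 5.15 and 6.09 CPM, log2 fold change −2.72) and SNAI2 and ZEB1 (−2.41 and −2.13), repressors of epithelial genes. TWIST1 stood at 10.1 and 13.2 on D11 and 4.91 and 3.89 CPM on D15 and fell by 1.33. Of 40 collagens and matrix genes, 22 fell and 1 rose (median −1.45). COL1A2 went from 537 and 766 to 140.2 and 185 CPM (−1.91, adjusted p = 0.0076), while COL1A1, at 1094 and 1205 on D11 and 357 and 426 CPM on D15, missed the call (−1.47, adjusted p = 0.033). LAMA1, a laminin chain of embryonic basement membranes, was the member that rose (2.40 and 2.32 to 8.93 and 7.02 CPM, 1.83). Of 30 surface and cytoskeleton genes, 19 fell and none rose (median −1.89). S100A4, a calcium-binding protein of fibroblasts, went from 719.9 and 632 to 82.2 and 105 CPM (−2.77, adjusted p = 8.1e-05) and VIM, the mesenchymal intermediate filament, from 1674 and 2123 to 509 and 575 (−1.72). THY1 stood at 499.8 and 425 on D11 and 319 and 364 CPM on D15 and was not called (adjusted p = 0.20). The summed level of the 10 fibroblast markers was 4934 and 5591 CPM on D11 and 1474 and 1730.0 CPM on D15, none of them at 0. Of the 11, 23 and 19 calls of the 3 lists, 2, 3 and 4 were kept at the 5% mitochondrial limit, 2, 7 and 9 with only collagen-low cells and 3, 9 and 7 in the fit on 6 pools. Without pool A of D11 5, 10 and 6 were kept, without pool B of D11 5, 12 and 11, without pool A of D15 2, 2 and 5 and without pool B of D15 6, 11 and 7.

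HOX genes hold the positional memory of a fibroblast. Of 13 tested, 10 fell and none rose, against 6.18% called lower over all genes, with a median of −1.99, the lowest median of the 26 lists. HOXA9 went from 6.47 and 7.64 to 1.27 and 0.620 CPM (−2.87, adjusted p = 0.00025), HOXA11 from 10.7 and 12.7 to 1.76 and 2.31 (−2.43) and HOXC10 from 2.55 and 2.15 to 0.182 and 0.450 (−2.70). The days did not overlap for these 3 genes, and the share of all genes without overlap was not counted. Of the 10 called members, 1 kept the call at the 5% mitochondrial limit, 8 with only collagen-low cells, 4 in the fit on 6 pools, 6 without pool A of D11, 7 without pool B of D11, 4 without pool A of D15 and 7 without pool B of D15.

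Of 29 epithelial genes tested, 2 rose and none fell, against 2.53% called higher over all genes (median 0.29): CLDN3, a tight junction claudin (5.06 and 5.43 to 15.3 and 20.7 CPM, 1.86) and MAL2, a membrane trafficking protein (7.57 and 13.8 to 22.8 and 23.8, 1.22). CDH1, E-cadherin, stood at 18.9 and 27.6 CPM on D11 and 40.1 and 37.2 on D15 (adjusted p = 0.051), and EPCAM at 234 and 260.1 on D11 and 217 and 209.7 on D15 (adjusted p = 0.78). The EPCAM pools of D11 were the higher ones. Both calls were lost with only collagen-low cells, without pool A of D11 and without pool B of D15, that of MAL2 also at the 5% mitochondrial limit, in the fit on 6 pools and without pool A of D15, and that of CLDN3 without pool B of D11.

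**Figure D3:**
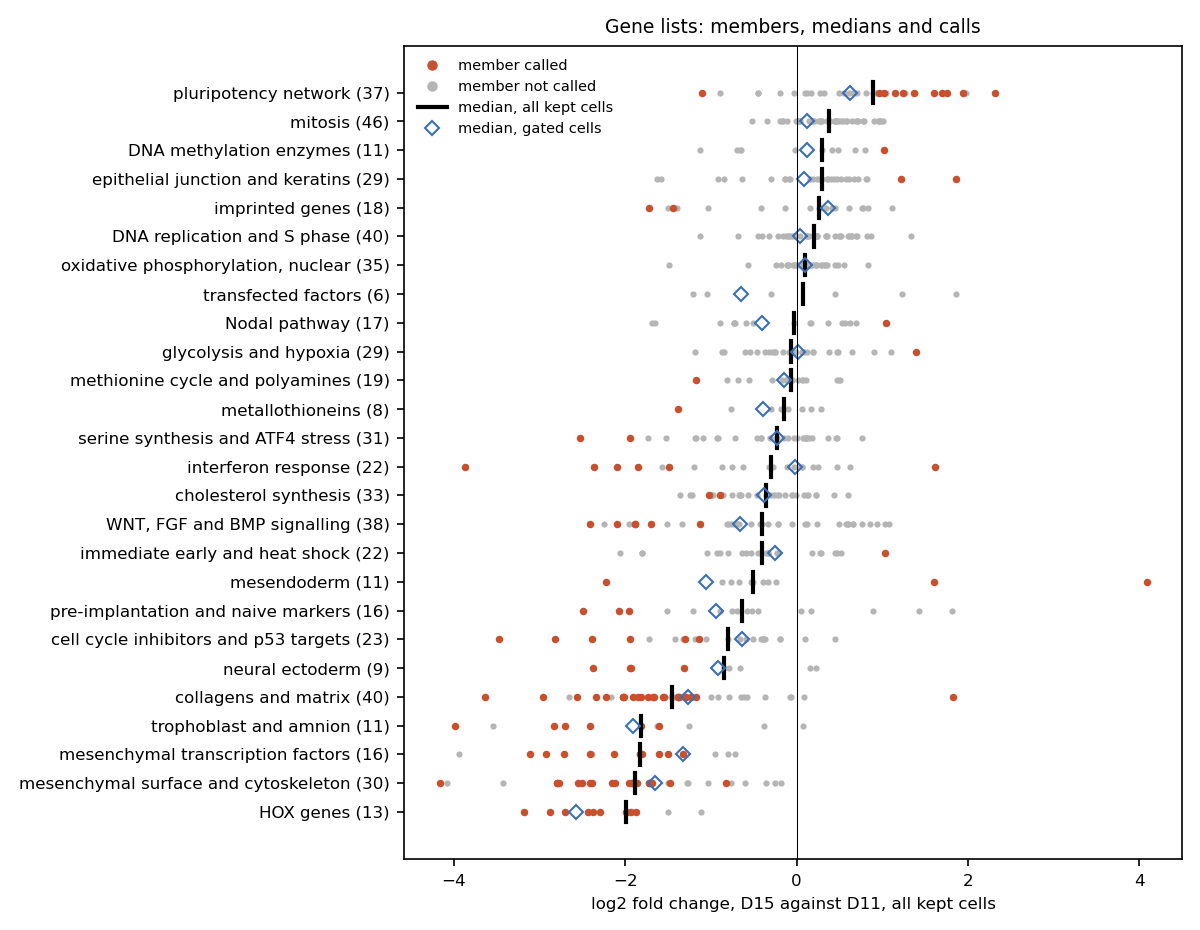
log2 fold change of D15 against D11 (x axis) for each tested member of the 26 gene lists (y axis, number tested in brackets), called members in red, with the median over all kept cells (black bar) and over POU5F1-high collagen-low cells (blue diamond). The pluripotency network had the highest median (0.89) and the HOX genes the lowest (−1.99).

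Of 11 trophoblast and amnion genes tested, 6 fell and none rose, against 6.18% called lower over all genes tested (median −1.82). TFAP2A, a transcription factor of trophoblast, amnion and surface ectoderm, went from 14.9 and 17.4 to 1.70 and 2.53 CPM (−2.83, adjusted p = 0.00024). HPGD, which inactivates prostaglandins, went from 56.7 and 81.4 to 8.12 and 11.7 (−2.71, adjusted p = 0.00014). The other called members were CSH1, IGFBP3, PGF and TPBG. After thinning to 5000 UMIs, TFAP2A was found in 26.6 and 28.4% of untransfected D0 fibroblasts and in 8.48 and 8.32% of D11 cells. TPBG was found in 36.8 and 35.6% on D0 and 16.8 and 20.9% on D11, and PGF in 17.1 and 15.9% and 18.6 and 13.1%. IGFBP3, also a fibroblast product, was rarer on D0 (9.13 and 9.28% against 39 and 25%). So were HPGD (0.195 and 0.194% against 16.7 and 18.4%) and CSH1 (in no cell of D0). KRT7, a keratin of trophoblast, stood at 42.7 and 29.9 on D11 and 7.33 and 15 CPM on D15 (adjusted p = 0.016) and GATA2 at 1.67 and 2.13 on D11 and 2.69 and 1.19 on D15 (adjusted p = 0.90). The 8 trophoblast markers summed to 231 and 219 CPM on D11 and 33.1 and 38.9 on D15, and CSH1, KRT7 and TFAP2A held most of the D11 sum. After thinning to 5000 UMIs, GATA3 was found in 0.718 and 1.01% of cells on D11 and 2.45 and 1.52% on D15. The thinned shares of CGA, GATA2, HAND1 and XAGE2 overlapped between the days. Of the 6 called members, 3 kept the call at the 5% mitochondrial limit, 4 with only collagen-low cells, 3 in the fit on 6 pools, 4 without pool A of D11, 5 without pool B of D11, 2 without pool A of D15 and 3 without pool B of D15.

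MIXL1, a homeobox gene of the primitive streak on chromosome 1 from 226223618 to 226227060, stood at 54.6 and 30.8 CPM on D11, 23.4 and 17.7 on D13 and 10.8 and 6.79 on D15, and its days did not overlap (−2.22, standard error 0.29, adjusted p = 0.00050). It was the 1 mesendoderm gene of 11 tested that fell, beside 2 that rose, APOA1 and KDR, a VEGF receptor that pluripotent cells also carry (7.07 and 10.0 to 28.5 and 20.4 CPM, 1.60). Over all genes 6.18% were called lower and 2.53% higher. The fit on 6 pools lost the calls of MIXL1 and KDR, and that of KDR was also lost at the 5% mitochondrial limit, with only collagen-low cells and without any 1 pool. The other tested members had no call, and only 11 of the 24 members were tested. CER1, a secreted Nodal antagonist, stood at 110.1 and 91.5 on D11 and 51.7 and 83.1 CPM on D15 (adjusted p = 0.32), EOMES at 11.5 and 9.29 on D11 and 6.93 and 9.69 on D15 (adjusted p = 0.66) and LHX1 at 28.9 and 16.1 on D11 and 18.9 and 15.2 on D15 (adjusted p = 0.64). After thinning to 5000 UMIs, the untested GATA4 was found in 0.205 and 0.152% of D11 cells and 1.40 and 1.85% of D15 cells. Likewise, FOXA2 went from 0.239 and 0.152% to 1.58 and 1.04% and SOX17 from 1.47 and 0.853% to 1.75 and 3.65%. T went from 2.91 and 2.19% to 0.175 and 0.237%, and the shares of GSC and GATA6 overlapped between the days. In the Nodal pathway 1 of 17 rose, against the same 2.53%, the activin receptor ACVR2B (20.6 and 23.1 to 45.8 and 39.3 CPM, 1.04), whose call was lost under each of these alternatives: the 5% mitochondrial limit, only collagen-low cells, the fit on 6 pools and the loss of any 1 pool. NODAL itself stood at 161 and 132 CPM on D11 and 37.7 and 48.8 on D15, without overlap, and just missed the call (−1.68, standard error 0.43, adjusted p = 0.018). Its feedback inhibitors LEFTY1 and LEFTY2 stood at 196 and 195 and at 309 and 303 CPM on D11, and at 119 and 127 and at 81.9 and 103 on D15 (adjusted p = 0.25 and 0.027).

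Of 38 WNT, FGF and BMP genes tested, 6 fell and none rose, against 6.18% called lower over all genes, and 14 were fitted higher without a call (median −0.40). BMP4 went from 68.8 and 70.0 to 22.8 and 17.6 CPM (−1.70, adjusted p = 0.0014), and WNT3, the WNT ligand of the primitive streak, from 10.2 and 11.2 to 2.51 and 2.94 (−1.89, adjusted p = 0.00079). WNT5A and WNT5B fell by 2.41 and 2.09 on the log2 scale, DKK1, a WNT antagonist, by 1.89, and ETV5, a transcription factor downstream of FGF, by 1.13. FGF2 stood at 31.7 and 40.3 on D11 and 49.5 and 45.9 CPM on D15 and was not called (adjusted p = 0.066). Of the 6 called members, 1 kept the call at the 5% mitochondrial limit, 5 with only collagen-low cells, 2 in the fit on 6 pools, 3 without pool A of D11, 4 without pool B of D11, 0 without pool A of D15 and 3 without pool B of D15.

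Of 16 genes of the pre-implantation embryo and naive cells tested, 3 fell and none rose, against 6.18% called lower over all genes (median −0.64). DPPA3, a maternal factor that protects DNA methylation marks in the early embryo, on chromosome 12 from 7711433 to 7717559, stood at 15.8 and 16.1 CPM on D11, 7.46 and 7.42 on D13 and 3.91 and 3.29 on D15. Every pool of D15 was below every pool of D11 and D13 (−2.07, standard error 0.29, adjusted p = 0.00065). SUSD2, a surface marker of naive cells, went from 5.62 and 7.45 to 1.15 and 1.04 CPM (−2.50), and TBX3 from 15.9 and 19.9 to 4.27 and 4.42 (−1.96). TBX3 was also a gene of the starting fibroblasts. After thinning to 5000 UMIs it was found in 48.8 and 47.7% of D0 cells, 8.41 and 10.6% of D11 cells and 1.75 and 2.28% of D15 cells. SUSD2 was found in 0.195 and 0.173% on D0 and 3.21 and 3.02% on D11. DPPA5 stood at 75.8 and 92.7 on D11 and 146 and 148 CPM on D15 (adjusted p = 0.075), with the D15 pools the higher ones. The call of DPPA3 was lost at the 5% mitochondrial limit and without either pool of D15, that of SUSD2 in the fit on 6 pools and without either pool of D15, and that of TBX3 at the 5% mitochondrial limit and with only collagen-low cells.

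After the same thinning, a UMI of DPPA3 was present in 5.54 and 4.81% of cells on D11 and 1.58 and 1.76% on D15, and in no cell of D0. In the same order of days, MIXL1 was found in 11.9 and 5.39% and 2.98 and 3.37%, CSH1 in 27.8 and 13.4% and 1.58 and 2.32% and NODAL in 42.3 and 33% and 15.8 and 17.3%, against 0.0488 and 0.0216% for MIXL1 and no cell for the other two on D0. Without thinning the shares were 34.4 and 24.2% on D11 and 14.7 and 7.83% on D15 for DPPA3, 61.4 and 20.1% and 17 and 11.5% for MIXL1, 90.7 and 36.8% and 6.48 and 10.6% for CSH1, and 89 and 62.6% and 49.7 and 50.4% for NODAL. In all 4 genes pool A of D11 had the larger share of the 2 pools, although CSH1 had the same summed level in both, and pool A is also the pool in which most collagen-high cells carried POU5F1. The part of free RNA in this was not tested. LUM was found in 42.5 and 29.9% of cells on D11 and 7.18 and 8.87% on D15, against 95.7 and 93.5% on D0 (93.6 and 55.4% and 18 and 23.1% without thinning).

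On D11 the falling genes lay in different cells. Collagen-high cells held 84.6 and 94.3% of the LUM UMIs of pools A and B of D11, and 84.2 and 93.2%, 78.2 and 91.4%, 74.2 and 88.6% and 67.1 and 86.5% of those of DCN, APOD, TWIST2 and MMP1, against 30.6% and 29.5% of all UMIs. They held 9.96 and 3.26% of the UMIs of CSH1, 10.8 and 6.77% of ACTA1, 8.42 and 1.71% of DPPA3, 8.84 and 2.83% of MIXL1, 8.28 and 3.04% of NODAL and 10.2 and 5.25% of HPGD. The first set was carried mainly by collagen-high cells and the second mainly by the other cells, as POU5F1 itself was (8.82 and 2.71%). TFAP2A (53 and 59.1%) and BMP4 (25.9 and 29.5%) were shared between both. ACTG2 lay mainly in collagen-high cells (66.9 and 67.2%), with the rest in the other cells. Of the 791 genes called lower, 733 (92.7%) had in both pools a larger part of their UMIs in collagen-high cells than the average UMI, and 49 (6.19%) a smaller part. Among all genes tested these were 5878 (45.9%) and 6164 (48.2%), and among the 324 genes called higher 28 (8.64%) and 282 (87.0%). This place was read in the same libraries of D11 as the fold change, so it describes the calls and is not a test of them.

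**Figure D4:**
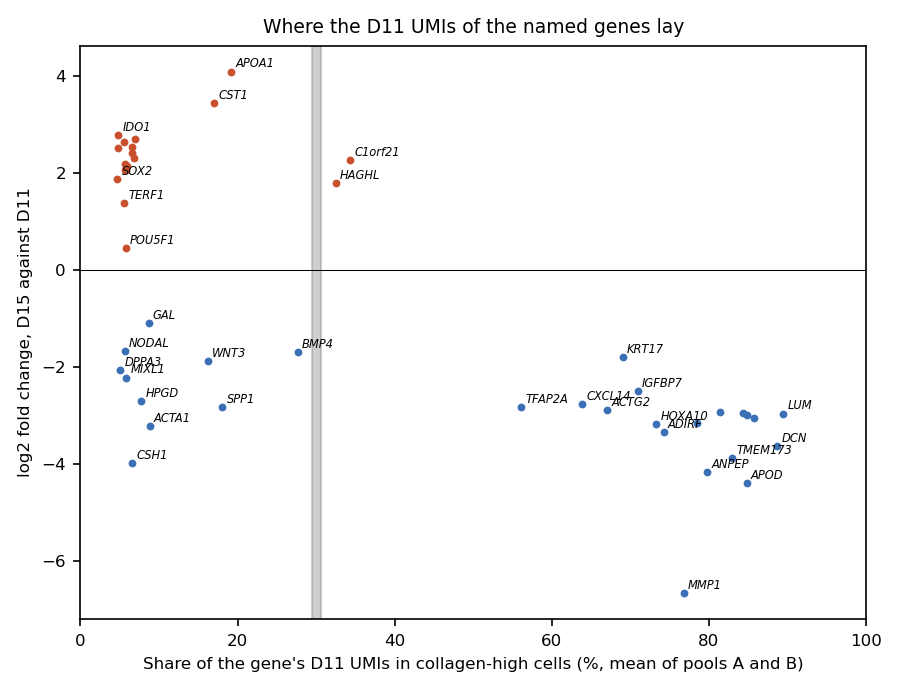
log2 fold change of D15 against D11 (y axis) against the share of a gene's D11 UMIs found in collagen-high cells (x axis, mean of pools A and B) for the named rises and falls and a few lineage genes, with the same share over all UMIs as a grey band. The fibroblast genes lie at the right, LUM at 84.6 and 94.3% in the 2 pools, and CSH1, ACTA1, MIXL1 and DPPA3 at the left, CSH1 at 9.96 and 3.26%.

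The comparison was repeated within the POU5F1-high collagen-low cells (1758 and 1884 cells in the pools of D11, 503 and 1844 in those of D15). Of 12790 genes tested, 166 (1.30%) were called, 60 (0.469%) higher and 106 (0.829%) lower, and POU5F1 and the 3 collagens were left out because they define the cells. Of the 166 calls, 156 (94%) were also called over the pool sums in the same direction, which is 14% of the calls over the pool sums. The 2 comparisons share their libraries. The count depended on each pool: it was 2 without pool A of D11, 53 without pool B of D11, 0 without pool A of D15 (edgeR, with 1513 genes at an unadjusted p below 0.05) and 1 without pool B of D15. It was 50 with a collagen limit of 500 CPM and 96 with the pool letter as a block. Of the 41 calls among the genes that the naming rule picked in these cells, 24 lost the call at the collagen limit of 500 CPM and 10 with the block.

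All but HAGHL of the 8 leading rises in these cells were also among the 15 largest of the pool sums. IDO1 stood at 5.14 and 5.86 CPM on D11 and 33.8 and 21.8 on D15 (log2 fold change 2.42, adjusted p = 0.0038), LINC01405 at 13.3 and 12.3 on D11 and 78.6 and 47.1 on D15 (2.38) and GNG4 at 5.77 and 5.33 on D11 and 22.7 and 22.6 on D15 (2.11). Their D15 pools were all above their D11 pools, as the naming rule required. C1orf21, LRRN1, ATCAY and HAGHL rose by 2.38, 2.30, 2.21 and 1.92. OTX2 (3.38 and 3.17 to 9.60 and 12.7 CPM, 1.85) and USP44 (76.2 and 107 to 261 and 270.5, 1.63) were the 2 genes of the pluripotency network that rose, of 37 tested and against 0.469% over all genes, and GAL again fell (1958 and 1904 to 620.5 and 720.2, −1.44). SOX2 stood at an adjusted p of 0.0101, just above the limit (1.52), and APOA1 and CST1, with log2 fold changes of 4.11 and 2.87, at 0.020 and 0.041. The median of the list was 0.63, against 0.02 over all genes tested in these cells.

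**Figure D5:**
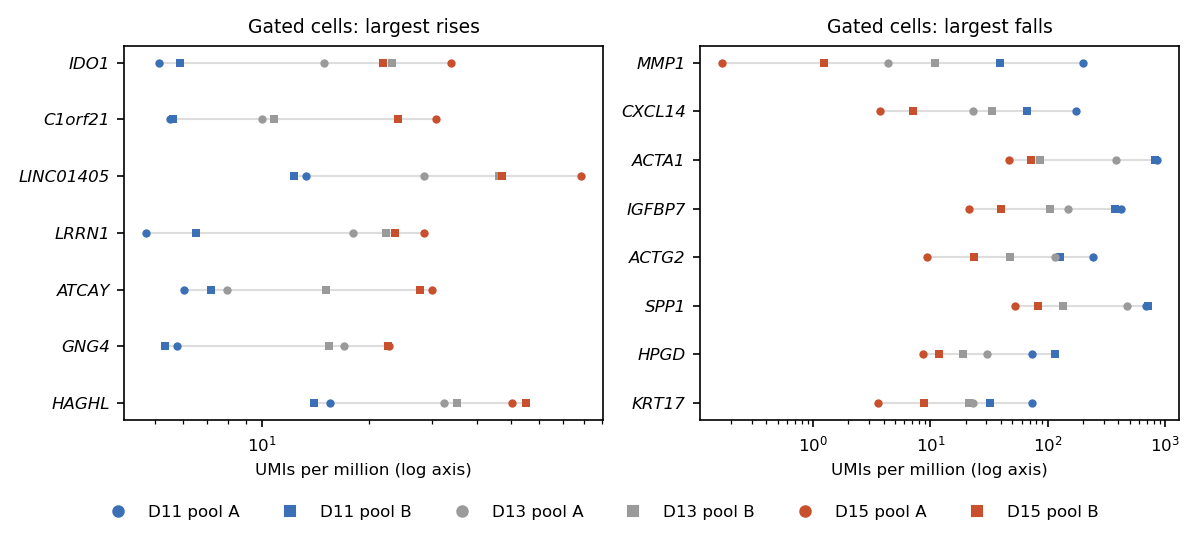
Level within POU5F1-high collagen-low cells of the genes named among the 8 largest rises (left) and of the 8 genes with the largest falls (right) between D11 and D15, in CPM of the tested genes on a log axis, with 1 point per pool (circles pool A, squares pool B). ACTA1 ran from 856 and 818 on D11 to 46.8 and 72.7 on D15 and IDO1 from 5.14 and 5.86 to 33.8 and 21.8.

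Secreted and contractile proteins were among the 8 leading falls within these cells. MMP1 stood at 201 and 38.9 CPM on D11 and 0.168 and 1.25 on D15 (−7.18, standard error 1.09, adjusted p = 0.0073), and CXCL14, a chemokine, at 174 and 67.2 on D11 and 3.69 and 7.11 on D15 (−4.40, adjusted p = 0.0029). For both, pool A of D11 was above pool B of D11 by more than 2-fold, and 67.1 and 86.5% of all MMP1 UMIs of these pools lay in collagen-high cells. ACTA1, in contrast, stood at nearly the same level in both D11 pools, 856 and 818 CPM, with 384 and 85.5 on D13 and 46.8 and 72.7 on D15 (−3.72, standard error 0.56, adjusted p = 0.0072). SPP1, the secreted phosphoprotein osteopontin, stood at 688 and 722 on D11 and 52.2 and 83.2 on D15 (−3.29, adjusted p = 0.0062). IGFBP7, a secreted IGF-binding protein, went from 419 and 373 to 21.3 and 40.2 CPM (−3.60), ACTG2 from 244 and 126 to 9.33 and 23.6 (−3.40), HPGD from 73.7 and 115 to 8.60 and 11.9 (−3.10) and KRT17 from 74 and 32 to 3.56 and 8.79 (−3.01). For KRT17 too, pool A of D11 was above pool B of D11 by more than 2-fold, and for ACTG2 by nearly as much.

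MIXL1, BMP4, WNT3, TFAP2A and DPPA3 were also called lower inside the POU5F1-high collagen-low cells. MIXL1 stood at 71.3 and 43 CPM on D11 and 7.59 and 6.02 on D15 (−3.00, standard error 0.33, adjusted p = 0.0019), BMP4 at 73.4 and 64.3 on D11 and 9.64 and 11.1 on D15 (−2.64, adjusted p = 0.0018), WNT3 at 12.4 and 13.5 on D11 and 2.15 and 2.50 on D15 (−2.38, adjusted p = 0.0018), TFAP2A at 9.90 and 7.24 on D11 and 0.470 and 0.872 on D15 (−3.53, adjusted p = 0.0018) and DPPA3 at 20.9 and 23.6 on D11 and 4.20 and 3.45 on D15 (−2.46, adjusted p = 0.0018). None of the 5 overlapped between the days. They were picked from called genes, and the share of all genes without overlap was not counted. By list, 6 of 38 WNT, FGF and BMP genes fell (median −0.66), 4 of 11 trophoblast and amnion genes (−1.90), 3 of 13 HOX genes (−2.58), 3 of 30 mesenchymal surface genes (−1.65) and 2 of 16 pre-implantation genes (−0.93). Over all genes tested in these cells, 0.829% were called lower and the median was 0.02. LUM, PRRX1 and S100A4, called over the pool sums, had no call here, with log2 fold changes of −2.33, −2.90 and −2.25 and adjusted p-values of 0.17, 0.14 and 0.090.

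None of 40 S phase genes (median 0.21), 46 mitosis genes (0.38) and 35 nuclear genes of oxidative phosphorylation (0.10) was called by edgeR, while 8, 19 and 4 of them had an unadjusted p below 0.05 and DESeq2 called 2, 4 and 2. MKI67 stood at 37.7 and 51.1 CPM on D11 and 90.3 and 77.4 on D15 (adjusted p = 0.043), TOP2A at 148 and 99.8 on D11 and 289.7 and 169 on D15 (adjusted p = 0.15), CDK1 at 55.2 and 65.9 on D11 and 49.5 and 51.8 on D15, MCM5 at 98.5 and 85 on D11 and 76.2 and 73.6 on D15, PCNA at 102 and 109.6 on D11 and 123 and 95 on D15 and TYMS at 75.2 and 76.6 on D11 and 44.1 and 45.6 on D15. Of 23 cell cycle inhibitors and p53 targets, 6 fell and none rose, against 6.18% called lower over all genes (median −0.80). CDKN2A, the locus of p16 and p14ARF, went from 61.9 and 70.2 to 9.48 and 14.2 CPM (−2.39, adjusted p = 0.0016) and CDKN1A, p21, from 88.3 and 66.2 to 14.6 and 23.3 (−1.95, adjusted p = 0.0041). On D11, 71 and 78.1% and 67.9 and 78.7% of their UMIs lay in collagen-high cells. MDM2 stood at 15.8 and 20.2 on D11 and 12.6 and 13.1 CPM on D15 and was not called. Of the 6 called members, 2 kept the call at the 5% mitochondrial limit, 3 with only collagen-low cells, 1 in the fit on 6 pools, 2 without pool A of D11, 4 without pool B of D11, 1 without pool A of D15 and 4 without pool B of D15.

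Of the 29 glycolysis genes, HK2, hexokinase 2, rose, a share near the 2.53% called higher over all genes (4.24 and 4.71 to 11.9 and 10.4 CPM, 1.40), and SLC2A1 and SLC2A3, glucose transporters, were not called (adjusted p = 0.067 and 0.17). Of 33 cholesterol genes 2 fell, STARD4 (−1.02) and INSIG1 (−0.89). Of 31 serine and ATF4 genes 2 fell, NUPR1 (−2.52) and HERPUD1 (−1.95), so that both shares were near the 6.18% called lower over all genes, while PHGDH and PSAT1, enzymes of serine synthesis, had adjusted p-values of 0.72 and 0.47. SAT1, which breaks down polyamines, fell from 256 and 257 to 101 and 114 CPM (−1.17) as the 1 call among 19 genes of methionine and polyamines. MT2A fell (−1.39) among 8 metallothioneins, a family whose members share sequence. HSP90AA1, a cytosolic chaperone, rose from 1549 and 1658 to 3041 and 3157 CPM (1.03, adjusted p = 0.0039), as the 1 call among 22 immediate early and heat shock genes, against the same 2.53%. The calls of HK2, STARD4, INSIG1, MT2A, HSP90AA1 and HERPUD1 were each lost without any 1 of the 4 pools. At the 5% mitochondrial limit those of STARD4, INSIG1, MT2A, HSP90AA1, NUPR1 and HERPUD1 were lost. In the fit on 6 pools every call of this paragraph was lost. With only collagen-low cells those of HK2, STARD4, INSIG1, MT2A and NUPR1 were lost. That of SAT1 was also lost without pool A of D11 or of D15.

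Of 22 interferon genes tested, 5 fell and 1 rose, against 6.18% and 2.53% over all genes (median −0.30). IFIT1, which binds foreign RNA, and IFIT3 fell by 2.10 and 1.85 on the log2 scale, and IFIT2 and IFI44 fell to 4 and 6 UMIs in pool A of D15. B2M, the light chain of MHC class I, went from 589.8 and 642 to 189 and 224 CPM (−1.49, adjusted p = 0.00054). BST2, tetherin, was the one that rose (14.6 and 14.2 to 49.1 and 35, 1.62, adjusted p = 0.00030), and ISG15 stood at 118 and 101 on D11 and 87.2 and 115 on D15 and was not called. Of 18 imprinted genes 2 fell, against the same 6.18%, PHLDA2 (162 and 107 to 33.4 and 44.3 CPM, −1.72) and PLAGL1 (−1.44), whose direction turned when only collagen-low cells were summed. The call of PHLDA2 was lost there too, and both calls were lost at the 5% mitochondrial limit, in the fit on 6 pools and without pool A of D15, and that of PLAGL1 without pool B of D11. MEG3 stood at 173 and 197 on D11 and 245 and 221 CPM on D15 and was not called (adjusted p = 0.27). Of 9 neural genes 4 fell, against 6.18% over all genes, STMN2 (−2.37), MEIS1 (−1.95), MAP2 (−1.93) and MEIS2 (−1.31), and collagen-high cells held 67.8 and 80.3% of the D11 UMIs of STMN2 and 62.5 and 72.5% of those of MAP2. Among 11 genes of DNA methylation the 1 call was DNMT3B, a rise, against 2.53% called higher over all genes (78.2 and 123 to 211 and 174 CPM), and DNMT1 and DNMT3A had adjusted p-values of 0.052 and 0.28. Of the 6 interferon and 4 neural calls, 2 and 1 were kept at the 5% mitochondrial limit, 1 and 3 with only collagen-low cells, and 1 and 2 in the fit on 6 pools. Without pool A of D11 4 and 3 were kept, without pool B of D11 4 and 2, without pool A of D15 2 and 2 and without pool B of D15 4 and 2. The call of DNMT3B was lost under each of these alternatives. It was also lost with the pool letter as a block, library totals alone, no filter on genes and sums thinned to the smallest total.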

How the data were processed

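The authors deposited, for each library, the UMI counts per gene and barcode made with Cell Ranger 2.2 on the hg38 genome, as raw counts with no normalization, and the files still held barcodes below the filter on cells. Libraries of 1 pool were summed after the cell filter given above, and the 12794 genes of 33694 detected in at least 5% of the kept cells were tested (99.7% of UMIs). Differential expression was computed with edgeR 4.0.16 in R 4.3.3 (quasi-likelihood test, TMM, all 16 pools of 8 days in 1 fit, contrast D15 against D11, Benjamini-Hochberg adjustment), and within POU5F1-high collagen-low cells with the 10 pools that held at least 50 of them. DESeq2 1.42.0 was an alternative. The fit was tested on simulated counts. CPM are a gene's UMIs per 1000000 UMIs of the tested genes in a pool (of all genes for the limits on single cells), and fold changes are edgeR's. Tables were made with Python 3.11.15 (pandas 2.3.3, scipy 1.17.1, numpy 2.4.6), figures with matplotlib 3.10.9. Coordinates are from gencode v44 of GRCh38, matched by Ensembl identifier for 12740 of the 12794 genes. No doublets were removed. A few genes that the naming rule picked are not reported here.

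Named were called genes with both D15 pools on 1 side of both D11 pools and at least 20 CPM in both pools of the higher day, the 15 largest rises and falls (8 each within the gated cells), and of each list the first 3 members and up to 6 called each way, without mitochondrial and ribosomal protein genes. For each gene the log2 fold change is D15 over D11. The members and the 26 lists were chosen with earlier results of these data known, and CArG boxes after the values were seen.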

Additional observations from a re-analysis of the deposited data

How the results depend on the processing

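The count of genes called over the pool sums stayed within 1.5 times of 1115 with DESeq2's size factors (1125), library totals alone (1053), sums thinned to the smallest total (1007), without the deepest 5% of cells (1086), with either aliquot of pool B of D11 alone (1036 and 1101) and with the pool letter as a block (1194, 357 higher and 837 lower). It was larger with DESeq2 (2075, with 780 higher and 1295 lower), no filter on genes (2417 of 29281, 677 and 1740), only the 4 pools of both days (2245, 825 and 1420) and an adjusted p below 0.05 (2372, 882 and 1490). It was smaller with only the 6 pools of D11, D13 and D15 (188, 53 and 135), a mitochondrial limit of 5% (226, 120 and 106) and collagen-low cells only (370, 120 and 250). Leaving out 1 pool at a time gave 174 to 431 calls, 60 to 96 higher and 114 to 362 lower. Within POU5F1-high collagen-low cells, 166 calls became 930 with DESeq2, 96 with the pool letter as a block, 50 with a collagen limit of 500 CPM, and 0 to 53 without 1 pool. The lone pool left on a day is assumed to vary like the others. The cause of these shifts was not tested. Over the named genes and alternatives, 2535 pool-sum values kept direction and side of the threshold, 422 lost the call, 48 gained one, and PLAGL1 turned direction with collagen-low cells only (log2 fold change 0.15). Of the 167 named genes 113 were called, so many of the values that kept their side belong to genes without a call. The limit of adjusted p below 0.05 used the same fit and could lose no call. Within POU5F1-high collagen-low cells, 185 values of named genes kept direction and side and 184 lost the call. Of the 30 largest changes, APOA1, CST1, IDO1, LRRN1, GNG4, C1orf21, TSTD1, TNNI3, MMP1, APOD and MOXD1 kept their call under all 18 alternatives. The pool letters are only names: the A minus B differences of D11 and D15 correlated at 0.08 across genes, and those of the 28 pairs of days at −0.41 to 0.81, and the fit with the letter as a block lost 3 named calls over the pool sums and 10 of 41 within POU5F1-high collagen-low cells. The 2 pools per day limit the precision, and pool A of D15 rests on 571 cells.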

Other observations

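Within POU5F1-high collagen-low cells, 10 of the 166 called genes had no call over the pool sums, and those named were chosen after their values were seen. CNTN1, a neuronal adhesion protein, was the one that rose, from 0.186 and 0.336 CPM in pools A and B of D11 to 1.71 and 1.79 CPM on D15 (log2 fold change 2.84, adjusted p = 0.0042 from edgeR). Its level was low on both days, and the pools did not overlap.

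The other 9 fell. GAD1, which makes GABA, stood at 14.8 and 13.6 on D11 and 2.55 and 3.96 CPM on D15 (−2.02, adjusted p = 0.0080), and MEOX1, a homeobox gene of somites, at 1.87 and 1.94 on D11 and 0.269 and 0.222 on D15 (−2.89, adjusted p = 0.0086). DKK3, GMPR, RHOB, CREB5, HTRA3 and RP11-277P12.10 had log2 fold changes of −1.87, −1.85, −1.53, −1.39, −2.37 and −1.62. The D15 pools of all 9 were below their D11 pools. These genes were picked from calls, and the share of such genes over all genes tested in these cells was not counted. Over the pool sums the log2 fold changes had the same sign, CNTN1 at 1.79, MEOX1 at −2.25, DKK3 at −2.25, RHOB at −1.38 and GAD1 at −0.98, and the adjusted p-values of the 9 genes named here ran from 0.012 (DKK3) to 0.025 (HTRA3) there, above the limit of 0.01. Whether the fold change in these cells differs from that over the pool sums was not tested.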
